A study of Mus musculus with 12 samples.

Results

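The proteins of the cytosolic ribosome are encoded by one family of genes, named *Rpl* for the large subunit and *Rps* for the small subunit. Members were chosen by symbol: Rps or Rpl with a number and an optional a, x or l, plus *Rpsa*, *Rplp0*, *Rplp1* and *Rplp2*, without pseudogene symbols and the *Rps6k* kinases. The rule found 83 genes among the 45777 in the tables, 51 of the large and 32 of the small subunit. Of these, 81 are annotated as protein coding in RefSeq, and *Rpl6l* and *Rps4l* as pseudogenes. GENCODE also types *Rpl32l* as a processed pseudogene.

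Every translating cell needs about equal numbers of nearly all of these proteins, and their genes are transcribed together at high levels. Many of their mRNAs start with a C followed by an unbroken stretch of C and T, the 5′ TOP (terminal oligopyrimidine) motif, which places their translation under growth signals. Several of the genes also carry small nucleolar RNA (snoRNA) genes in their introns. In humans, loss of 1 copy of *RPS19*, *RPS24*, *RPS26*, *RPL5* or *RPL11* causes Diamond-Blackfan anaemia, and mouse *Rpl38* is known for its role in patterning of the axial skeleton.

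The data are total RNA-seq of mouse ventral spinal cord at E12.5, trimmed around the Hb9::GFP reporter that marks MNs (motor neurons). Brachial and lumbar cord each gave 3 libraries of *Isl2* +/- embryos (Het) and 3 of *Isl2* -/- embryos (KO), in which a neomycin cassette replaced coding exons of *Isl2*, a LIM homeodomain transcription factor of postmitotic MNs. No wild-type libraries were among them, so the controls also lack 1 copy of *Isl2*. The study design gives 3 animals per genotype, so brachial and lumbar libraries may share embryos, which the labels do not settle.

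Depth was 4.48 to 6.64 Gb of aligned bases. Levels are TPM divided by a size factor per library, 0.893 to 1.25 (rescaled TPM). *Isl2* itself was at 8.33 to 9.72 in brachial Het and 4.47 to 7.28 in brachial KO, and at 8.43 to 10.3 in lumbar Het and 6.53 to 8.24 in lumbar KO, lower in KO without overlap at each level. Of 8 MN markers none was at 0 in any group, and the lumbar genes *Hoxc10*, *Hoxd10* and *Hoxa11* summed to 0.0244 or less in every brachial library and to at least 169 in every lumbar library. The tissue is mixed, so fewer cells of a type and less RNA per cell cannot be told apart.

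The starts of the genes show what the family shares in sequence. RefSeq promoter entries (GRCm38.p6, 250 bases before to 50 after the annotated start) were found for 61 of the 83 members, and the starts themselves were not measured here. An unbroken run of 8 or more C or T lay within 15 bases of an annotated start in 44.3% of these members and in 13.8% of 26964 other genes. The 30 bases centred on the start, on the strand of the gene, are given for 8 members on which the results turn, with the longest such run in capitals.

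Rpl7a: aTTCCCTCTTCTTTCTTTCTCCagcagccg
Rps9: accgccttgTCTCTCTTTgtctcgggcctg
Rps27: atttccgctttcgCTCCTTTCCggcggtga
Rps27l: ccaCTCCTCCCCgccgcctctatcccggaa
Rps15a: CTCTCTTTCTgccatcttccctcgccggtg
Rps23: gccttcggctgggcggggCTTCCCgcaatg
Rps7: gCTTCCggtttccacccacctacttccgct
Rpl41: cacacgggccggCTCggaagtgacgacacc

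*Rpl7a* (chr2:26910792-26910821, plus strand) had the longest of these runs, 21 bases. *Rps15a* (chr7:118116133-118116162, minus strand) had 10, and *Rps9* (chr7:3704026-3704055, plus), *Rps27* (chr3:90213634-90213663, minus) and *Rps27l* (chr9:66946071-66946100, plus, the first of 2 listed starts) had 9 each. In *Rps23* (chr13:90923107-90923136, plus) the longest run was 6 bases, in *Rps7* (chr12:28635939-28635968, minus) 5, and in *Rpl41* (chr10:128549154-128549183, minus) 3. The letters CTTCCGG, the core bound by ETS factors such as GABP, were found on either strand of the 300 bases in 25 of 61 members (41%) against 9.86% of other genes. A palindrome centred on CGCG was found in 6 of 61 (9.84%) against 0.504%. It is printed in capitals, with 10 bases on each side, for 3 of those 6.

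Rpl26: gctccgagacTCTCGCGAGAtctcgcggca
Rpl12: ggccagcggtTCTCGCGAGAgctgagcttt
Rps6: cgccggctgtTCTCGCGAGAacttagagcg

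These lie at chr11:68901530-68901559 (plus strand), chr2:32961648-32961677 (plus) and chr4:86857399-86857428 (minus), and the palindrome begins 26, 54 and 51 bases before the annotated start. TATAAA was found in 11.5% of members and 15.7% of other genes, and GGGCGG in 59% and 38.2%. The 27 tested members with a C or T run of 8 or more had a median level of 623 rescaled TPM, and the 31 with an entry but no such run 799. The medians of their brachial KO minus Het differences were −0.27 and −0.26 on the log2 scale.

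Members were also short and often hosted snoRNA genes. The median gene spanned 3164 bases, against 17322.5 for other protein-coding genes. Inside 29 members (34.9%) lay 57 annotated snoRNA genes on the same strand, against 0.899% of other protein-coding genes with any, and *Rpl4* held the most, 5. Host and other members had median levels of 777 and 699 rescaled TPM.

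Ribosomal protein mRNAs were among the most abundant in the tissue. Together they made up 5.38% to 6.5% of deposited TPM, or 8.38% to 10.6% of the TPM of protein-coding genes. Of the 100 protein-coding genes of highest mean TPM, 43 were members. The 77 protein-coding members with a mean above 50 spanned a 16.9-fold range. The 46 of the large subunit ran from 201 to 1967 rescaled TPM with a median of 766, and the 31 of the small subunit from 116 to 1648 with a median of 815. The ratio of the small to the large subunit sum stayed between 0.682 and 0.703 in all 12 libraries.

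**Figure D1:**
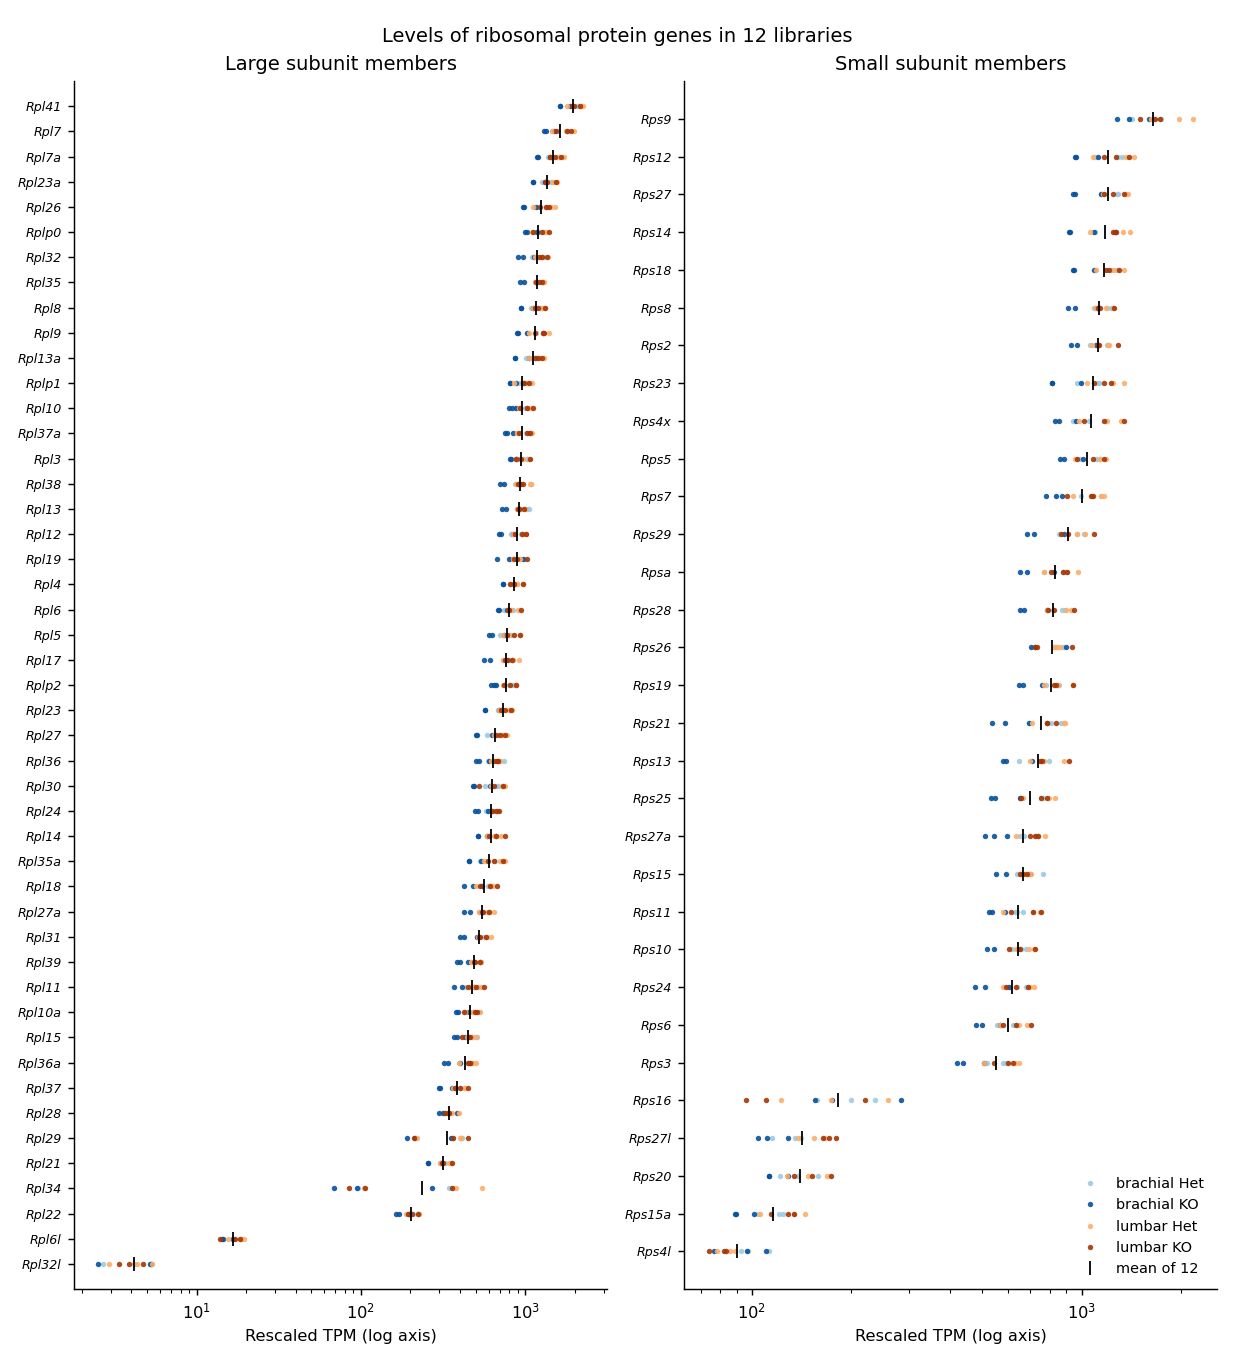
Rescaled TPM (log axis) of the members shown, each with a value above 0 in all 12 libraries, large subunit left and small subunit right, ordered by mean. Each point is 1 library, coloured by group, and the black tick is the mean of 12. Most members form tight rows, while *Rpl34*, *Rpl29* and *Rps16* spread widely. Of the dark blue brachial KO points, those of KO 2 and KO 3 tend to lie on the left and KO 1 among the other libraries.

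*Rpl41*, which encodes one of the shortest known proteins, was the highest of all at 1967 ± 205 rescaled TPM (SD, n = 12). It exceeded the next gene, *Rps9* at 1648 ± 249, by more than the larger SD. *Rpl7* (1624 ± 227), *Rpl7a* (1477 ± 170), *Rpl23a* (1359 ± 144) and *Rpl26* (1253 ± 174) completed the top 5 of the large subunit. After *Rps9*, the highest of the small subunit were *Rps12* (1206 ± 165), *Rps27* (1203 ± 146), *Rps14* (1177 ± 156) and *Rps18* (1166 ± 130). Of the 80 neighbouring pairs in the order of means, 73 differed by less than the larger SD of the pair. That SD includes shifts of a library that the members share, and within libraries the order of 12 of the 80 pairs held in all 12 libraries. Of those 12, 6 were among the 73, such as *Rpl7* above *Rpl7a*, *Rpl7a* above *Rpl23a* and *Rpl23a* above *Rpl26*.

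At the lower end of the genes for core proteins were *Rps15a* (116 ± 18.4), *Rps20* (140 ± 20.7) and *Rps16* (182 ± 59.3) of the small subunit, and *Rpl22* (201 ± 20.7), *Rpl34* (235 ± 161), *Rpl21* (315 ± 33.8) and *Rpl29* (332 ± 95.5) of the large. The order is of mRNA estimates, and the proteins were not measured. The stalk proteins, which recruit translation factors to the large subunit, were *Rplp0* at 1199 ± 123.3, *Rplp1* at 959 ± 101 and *Rplp2* at 762 ± 99.4. *Rpsa*, known as the laminin receptor precursor, was at 828 ± 95.7. The X-linked *Rps4x* and *Rpl10* were at 1071 ± 171 and 958 ± 103.

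The genes with the suffix l are paralogs or copies of a core gene, and most were low or absent. *Rpl10l*, which stands in for X-linked *Rpl10* in male germ cells, and *Rpl3l*, the heart and skeletal muscle counterpart of *Rpl3*, were listed at 0 in all 12 libraries. *Rpl39l*, known from testis, was listed at 0 in 10 libraries, at 0.174 in brachial Het 2 and at 0.669 in brachial KO 2. These 3 did not pass the filter on low values, a mean TPM of 0.5, and the other 80 members did in every comparison.

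*Rps27l*, a p53-inducible paralog of *Rps27*, was the only l gene above 100 rescaled TPM, at 142 ± 25 against 1203 ± 146 for *Rps27*. *Rps4l* was at 89.98 ± 12.49 against 1071 for its parent *Rps4x*, *Rpl6l* at 16.7 ± 1.84 against 799 for *Rpl6*, and *Rpl32l* at 4.14 ± 1.06 against 1188 for *Rpl32*. By BLASTN of the annotated transcripts, *Rpl6l* was 98.7% identical to *Rpl6* and *Rpl32l* 96% identical to *Rpl32* over the aligned bases, so reads could have been split between them. *Rps4l* and *Rps27l* shared 79.8% and 76.4% of aligned bases with their parents.

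The study compared KO with Het to find genes that depend on *Isl2*. At the brachial level 46 of 80 tested ribosomal protein genes were lower in KO at an unadjusted p under 0.05 and none after adjustment, and the ranges of KO and Het overlapped in 56. Of the 80 members, 78 had a lower mean log2 level, with a median difference of −0.26 against −0.01 for all 16935 genes. That median stayed below 0 under every scaling tried that was not taken from the members alone. With limma, no member was higher, where 7.13% of all genes were lower and 6.67% higher at the same threshold. An adjusted p of 0.05 was passed on the lower side by 0.0059% of all genes. Both subunits took part, with 28 of 48 large and 18 of 32 small subunit members lower and medians of −0.27 and −0.26.

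The members of smallest p were *Rps7*, *Rps27a* and *Rps15a*. *Rps7*, a small subunit protein that also binds the p53 regulator MDM2, was at 1076, 999 and 1147 rescaled TPM in brachial Het and at 873, 835 and 782 in brachial KO. All 3 KO libraries lay below all 3 Het libraries. The log2 difference was −0.37 ± 0.09 (SE) (adjusted p = 0.359, limma).

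*Rps27a*, made as a fusion with ubiquitin, was at 668, 652 and 728 in Het and at 592, 544 and 510 in KO. *Rps15a* was at 121, 104 and 124 in Het and at 102, 88.7 and 89.3 in KO. The groups of each gene did not overlap, and the log2 differences were −0.32 ± 0.09 for *Rps27a* and −0.32 ± 0.09 for *Rps15a* (adjusted p = 0.359 each, limma). Such separation of the ranges was seen in 24 of 80 members, against 10.3% of all genes. The 2 members with a higher mean in KO were *Rpl32l* (0.06) and *Rps16* (0.02), and neither passed the test.

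Of the anaemia genes, *Rps19* (−0.26) and *Rps24* (−0.27) were lower at an unadjusted p under 0.05, as was *Rps14* (−0.31). *Rpl5* (−0.23), *Rpl11* (−0.19) and *Rps26* (−0.14) did not pass it, nor did *Rpl38* (−0.29). *Rpl41* was at 2083, 1925 and 2121 in Het and at 1871, 1635 and 1640 in KO, a log2 difference of −0.25 ± 0.11 (adjusted p = 0.359, limma), and its groups did not overlap. Of the stalk genes, *Rplp1* (−0.26) was lower at an unadjusted p under 0.05, while *Rplp0* (−0.19) and *Rplp2* (−0.24) did not pass, and neither did *Rpsa* (−0.24), *Rpl10* (−0.19) or *Rps4x* (−0.26).

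**Figure D2:**
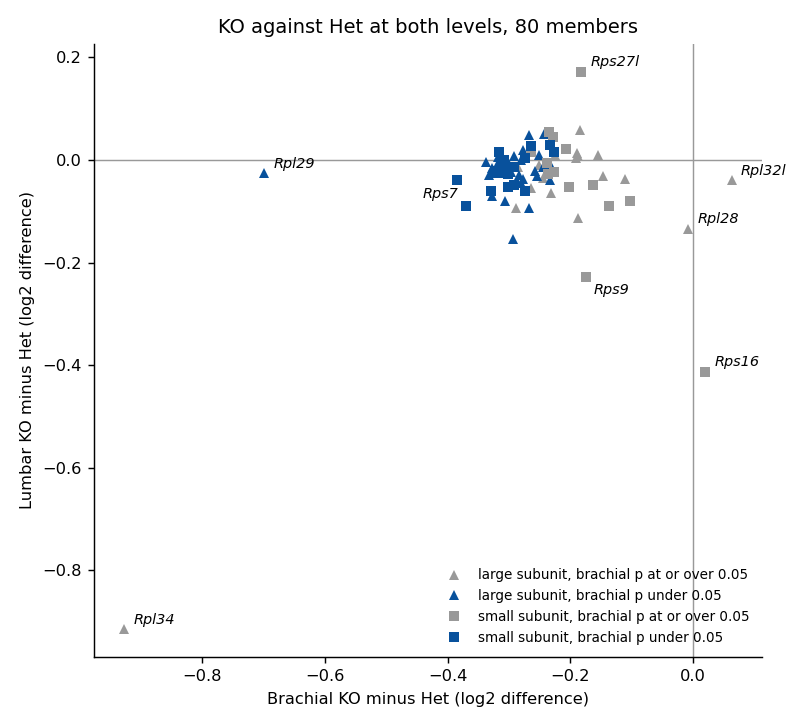
Log2 difference KO minus Het of the 80 tested members at the brachial level (x axis) and the lumbar level (y axis); triangles are large and squares small subunit genes, blue where the brachial p was under 0.05. The cloud sits near −0.26 on the x axis and near 0 on the y axis, with *Rpl29*, *Rpl34* and *Rps16* apart from it.

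The members moved as a block from library to library. The median log2 deviation of the 80 members from their means over 12 libraries was 0.10, −0.08 and 0.12 in brachial Het 1 to 3 and −0.05, −0.28 and −0.31 in brachial KO 1 to 3. Thus brachial KO 2 and KO 3 lay below every other library, while KO 1 lay above Het 2. In the lumbar libraries the medians were −0.06, 0.13 and 0.21 in Het and −0.02, 0.19 and 0.06 in KO. Within a library the members' interquartile range was 0.0579 to 0.101. The median SD of a member over libraries was 0.182, and 0.0556 after the library median was taken out.

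**Figure D3:**
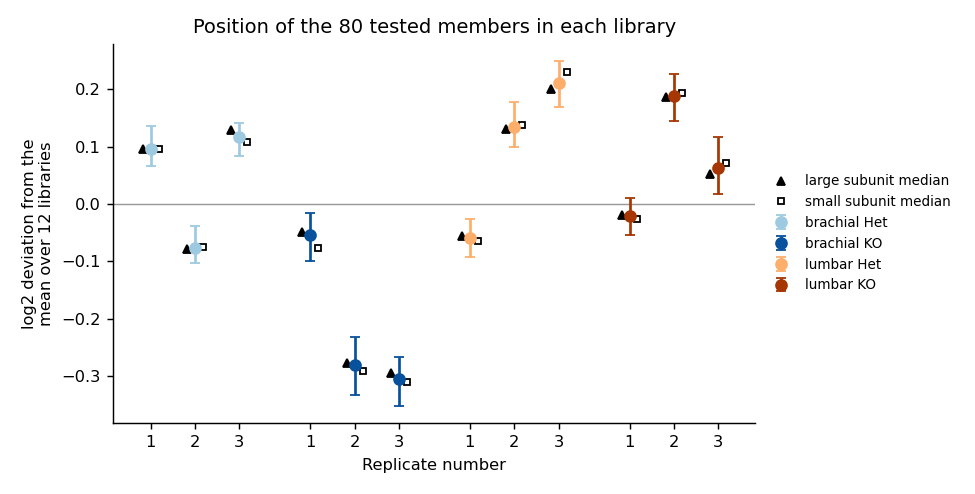
Median (circle) and interquartile range (bars) of the log2 deviation of 80 members from their means over 12 libraries, for each replicate of the 4 groups; triangles and squares are the medians of the large and small subunit genes alone. Both subunits shift together, and brachial KO 2 and 3 are lowest at −0.28 and −0.31.

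The size of the brachial difference depended on single libraries and on scaling. Without Het 1, Het 3, KO 2 or KO 3, 5, 6, 9 and 6 members were lower, and without Het 2 or KO 1, 58 and 71, with medians between −0.34 and −0.22. The share of all genes called was not taken for these refits or the scalings that follow. These counts thus cannot be set against a background. In TPM as deposited 1 member was lower and the median was −0.088, but the median of all genes was then 0.16, so the members still lay 0.25 below it. After quantile normalization 22 were lower and the median was −0.081, which is 0.059 below that of all genes. KO 2 had the highest size factor (1.25) and the lowest share of TPM in the 5 most abundant small RNAs (23.7%, others 30.9% to 38.2%), and KO 3 the lowest depth (4.48 Gb).

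The summed level was 63546 ± 4762 rescaled TPM in brachial Het and 53052 ± 5226 in brachial KO (SD, n = 3), 16.5% lower. As a share of deposited TPM the members were at 6.5%, 6.09% and 6.21% in Het and 6.08%, 6.28% and 5.38% in KO, which overlap. As a share of protein-coding TPM they were at 10.2%, 9.47% and 10.2% in Het and 9.38%, 8.72% and 8.38% in KO, which do not.

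Other gene groups were read the same way. Of genes for oxidative phosphorylation 61 of 87 were lower in brachial KO at an unadjusted p under 0.05 with a median of −0.27. Of genes for mitochondrial ribosomal proteins 31 of 78 were lower (median −0.21), of ribosome biogenesis factors 6 of 40 (−0.09, 1 higher), and of translation factors and other mRNAs with a TOP motif 3 of 20 (−0.12, 2 higher). The 8 ribosomal genes outside the symbol rule, among them *Fau*, *Rack1* and *Rps3a1*, had 6 lower and a median of −0.27. Blood markers (10 genes) summed to 2501 to 4213 rescaled TPM in brachial Het and 3485 to 7124 in brachial KO, with none at 0 in either group. All were higher in KO, with log2 differences of 0.21 to 0.81 and a median of 0.49, and none passed an unadjusted p of 0.05. Ventral progenitor markers summed to 732 to 889 and 707 to 923. At an unadjusted p under 0.05, 1 of 10 progenitor markers (*Nkx6-1*, 0.64), 2 of 6 postmitotic neuron markers (*Elavl3*, 0.30, and *Map2*, 0.25), *Hoxc8* (0.22) and the sensory neuron gene *Prdm12* (0.97) were higher in brachial KO. Lower were *Isl1* (−0.27) beside *Isl2* among 8 MN markers and *Cldn5* (−0.40) among 4 endothelial markers. The part of these cell types in the result was not tested.

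*Rpl29* (chr9:106428889-106431568, mm10) was the only member past the study threshold, a log2 difference beyond 0.5 with p under 0.05, which 0.874% of all genes passed in this direction. It was at 404, 366 and 413 rescaled TPM in brachial Het and at 213, 191 and 351 in brachial KO, a difference of −0.70 ± 0.21 by limma (adjusted p = 0.359). Lumbar libraries had it at 218, 402 and 408 in Het and 209, 447 and 363 in KO. Levels were thus near 200 in 4 libraries of 3 groups and at 351 or more in the other 8.

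Some pseudogenes of *Rpl29* were high where it was low. *Gm13841* and *Gm8210*, each 99.4% identical to *Rpl29* over 483 bases, were at 98.1 to 116 and 72.4 to 88.2 rescaled TPM in the 4 libraries where *Rpl29* was low, and at 8.3 to 11.3 and 4.84 to 6.53 in the other 8. Other copies followed *Rpl29*: *Gm5561*, 98.3% identical, was at 4.78 to 7.49 in those 4 libraries and 8.82 to 11.96 in the other 8, and *Gm17669*, 98% identical, at 4.64 to 6.49 and 9.16 to 12.8. With its 29 matched pseudogenes added, *Rpl29* was at 468, 424 and 473 in brachial Het and at 473, 409 and 404 in KO. The brachial difference of this sum was −0.09 ± 0.09 (adjusted p = 0.646, limma), an alternative chosen after the data were seen. No member then passed the study threshold, while the count of lower members was again 46.

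*Rpl34* (chr3:130726827-130730398) had the widest spread of all members. It was at 344, 96.6 and 364 in brachial Het, 94.5, 271 and 68.6 in brachial KO, 545, 104 and 381 in lumbar Het, and 84.9, 106 and 359 in lumbar KO. High and low libraries occurred in every group, and neither KO comparison passed the test (−0.93 ± 0.63 brachial, adjusted p = 0.475, and −0.91 ± 0.69 lumbar, adjusted p = 0.999, limma). *Gm10154*, 98.9% identical to *Rpl34* over 354 bases, was at 0.209 in lumbar Het 1, where *Rpl34* was highest, at 56.7 to 82.8 in the 5 other libraries with *Rpl34* above 250, and at 110 to 175 in the 6 with *Rpl34* below 110. With 12 matched pseudogenes added, *Rpl34* still ranged from 201 to 547.

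*Rps16* (chr7:28350689-28352698) varied without such a mirror. It was at 236, 199 and 157 in brachial Het, 284, 175 and 155 in brachial KO, 259, 174 and 122 in lumbar Het, and 110, 220 and 96.1 in lumbar KO, and its 8 matched pseudogenes summed to at most 17.1. After the library median was taken out, the SD of *Rpl34* was 1.05, of *Rps16* 0.54, of *Rpl32l* 0.43, of *Rpl29* 0.39 and of *Rps4l* 0.28, and every other member was at 0.17 or less.

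**Figure D4:**
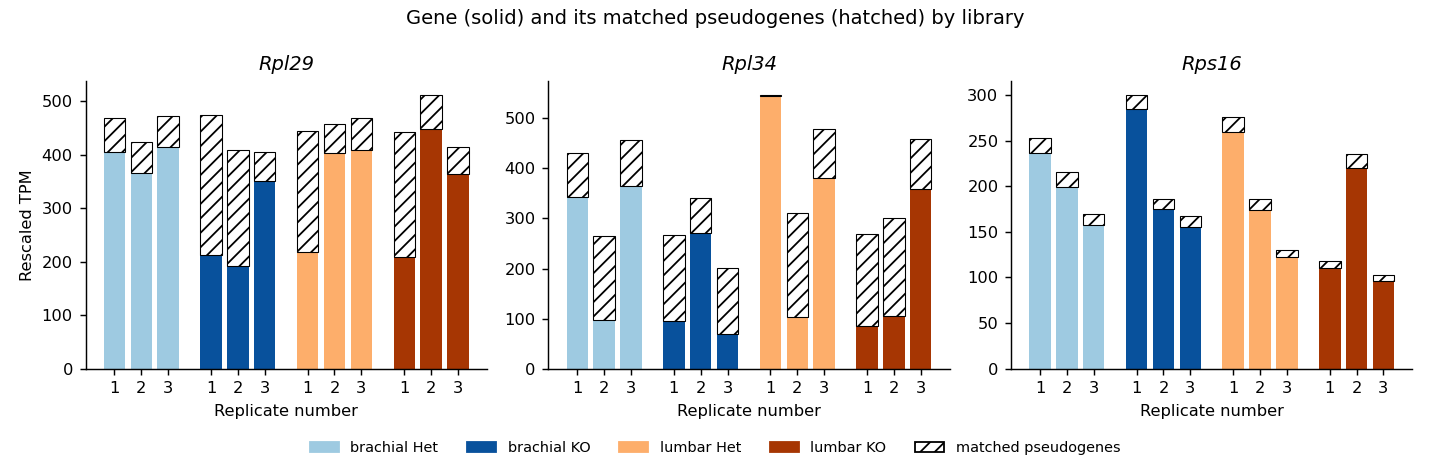
Rescaled TPM of *Rpl29*, *Rpl34* and *Rps16* (solid bars, coloured by group) and of their matched pseudogenes (hatched, stacked on top) in each of 12 libraries. For *Rpl29* the stacked heights lie between 404 and 512, although the solid bars range from 191 to 447; for *Rpl34* the stacks range from 201 to 547.

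Across the family, 1019 annotated pseudogenes in the tables matched a member (at least 80% identity over at least 0.5 of their length), and 281 of them were listed at 0 everywhere. Only 61 had a mean above 10 rescaled TPM. The matched pseudogenes exceeded 10% of the member's own level for 7 members, led by *Rpl34* (53.6%), *Rpl15* (37.7%), *Rpl29* (35.1%) and *Rps6* (30.7%). Those of *Rpl30* were at 3.49% on average, but summed to 161 rescaled TPM in lumbar KO 3 and to 6.68 to 12.6 in every other library. *Rpl30* itself was at 669, 678 and 473 deposited TPM in lumbar KO 1 to 3. How the deposited tables shared reads between near-identical copies is not given in the sources used here, so levels of these members are uncertain.

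At the lumbar level the same comparison found no member past an unadjusted p of 0.05 in either direction by limma, where 2.25% of all genes were lower and 2.62% higher. The median difference was −0.02, with 53 members lower and 27 higher in mean, and its sign turned without Het 2, Het 3 or KO 1 (0.00568, 0.04 and 0.03). Summed levels were 66155 ± 6302 in Het and 64817 ± 4753 in KO. With quantile normalization 4 members were lower and 1 higher, where the share of all genes called was not taken.

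The lumbar members of smallest p were *Rps27l*, *Rpl28* and *Rps9*. *Rps27l* was at 138, 154 and 166 in Het and 164, 180 and 172 in KO, a difference of 0.17 ± 0.08 (adjusted p = 0.999, limma), with only Het 3 above the lowest KO library. *Rpl28* was at 396, 349 and 360 in Het and 338, 342 and 327 in KO (−0.13 ± 0.07, adjusted p = 0.999, limma), and it was the only member whose lumbar groups did not overlap, against 5.51% of all genes. *Rps9* was at 1622, 1973 and 2181 in Het and 1505, 1728 and 1667 in KO (−0.23 ± 0.13, adjusted p = 0.999, limma). Of members with a higher mean in KO, *Rpl19* (0.06) and *Rpl14* (0.05) came next to *Rps27l* by p, and neither passed the test.

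The difference between the lumbar and brachial KO effects was tested as an interaction over 12 libraries. Its median over members was 0.25 against −0.00337 for all genes, and 76 of 80 were above 0. Of the 80, 6 passed an unadjusted p of 0.05 on the higher side and 0 on the lower, against 2.28% and 2.15% of all genes, and none passed after adjustment. They were *Rps27a* (0.33), *Rps27l* (0.35), *Rpl37* (0.32), *Rpl36* (0.32), *Rpl39* (0.27) and *Rpl36a* (0.33) (adjusted p = 0.812 each, limma). In *Rpl37* the brachial values were 399, 376 and 422 in Het and 358, 305 and 300 in KO, and the lumbar values 364, 428 and 428 in Het and 373, 447 and 403 in KO. Without brachial Het 3 or lumbar Het 1 no member passed, and without brachial Het 1, KO 2, KO 3 or lumbar KO 2 1 did. Without lumbar KO 3 2 passed, and without brachial KO 1, brachial Het 2, lumbar Het 3 or lumbar KO 1 39, 25, 20 and 11. In TPM as deposited none passed. For these refits and for deposited TPM the share of all genes called was not taken. Of genes for oxidative phosphorylation 12 of 87 were higher in the interaction at an unadjusted p under 0.05 (median 0.20), and of mitochondrial ribosomal protein genes 5 of 78 (0.17). Among cell type markers *Foxp1* (−0.57) and *Slc5a7* (−0.41) of MNs and the neuronal *Map2* (−0.29) and *Stmn2* (−0.28) were lower at the same threshold, and their part in the result was not tested.

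Between levels, 37 of 80 tested members were higher in lumbar than in brachial cord and 1 was lower at an unadjusted p under 0.05, with genotype as a covariate, against 16.2% and 16% of all genes. The median was 0.17 on the log2 scale, and 78 of 80 members were above 0. That median stayed above 0 under every scaling tried that was not taken from the members alone. At an adjusted p of 0.05 by limma, 4 members were higher and 0 lower, against 8.88% and 9.65% of all genes. No member's lumbar libraries all lay above its brachial libraries, which 3.64% of all genes did. The lower member was the annotated pseudogene *Rps4l*, at 76.8 to 113 in the 6 brachial and 74 to 89.1 in the 6 lumbar libraries (−0.24, adjusted p = 0.0605, limma).

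*Rps27l* led these calls. It was at 135, 115 and 141 in brachial Het, 129, 104 and 111 in brachial KO, 138, 154 and 166 in lumbar Het, and 164, 180 and 172 in lumbar KO. Only lumbar Het 1, at 138, lay below the highest brachial library. The difference was 0.41 ± 0.09 (SE), with adjusted p = 0.00605 by limma. Its paralog *Rps27* was at 944 to 1290 in brachial and 1158 to 1385 in lumbar libraries (0.19 ± 0.08, adjusted p = 0.123).

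*Rpl35a*, a large subunit protein, was at 455 to 652 in the brachial and 560 to 756 in the lumbar libraries (0.31 ± 0.09, adjusted p = 0.0331). *Rps23*, which lines the decoding centre, was at 811 to 1133 and 1039 to 1349 (0.29 ± 0.09, adjusted p = 0.0339). *Rps15a* was at 88.7 to 124 and 106 to 145 (0.28 ± 0.09, adjusted p = 0.0474). The ranges of all 3 overlapped. None of the 3 passed in TPM as deposited, with no filter on low values or with replicate number as a block, where *Rps27l* still did. Without an eBayes trend *Rps27l* and *Rps23* passed and *Rpl35a* and *Rps15a* did not.

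**Figure D5:**
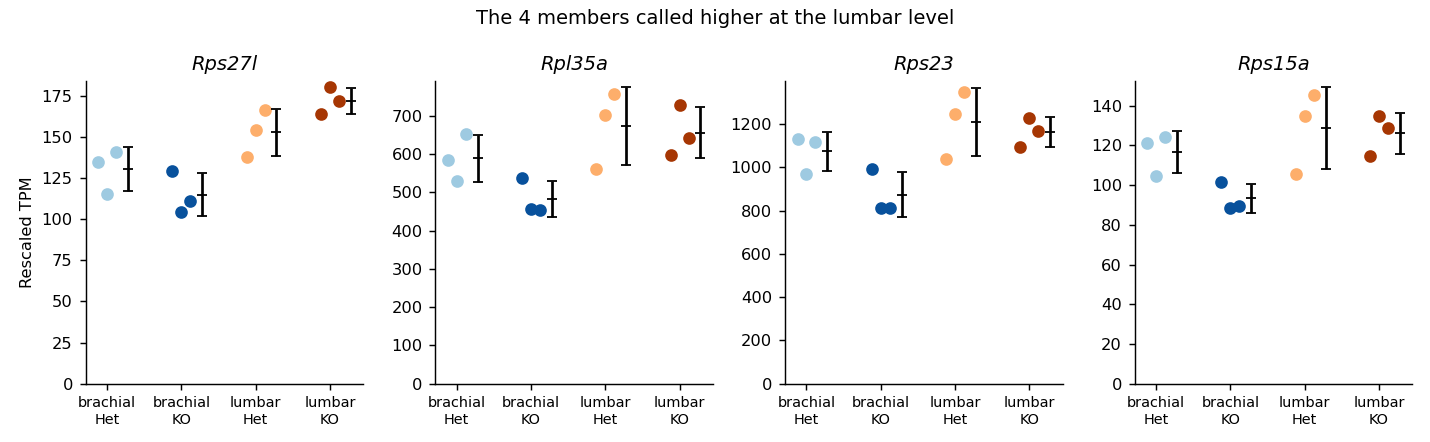
Rescaled TPM of the 4 members with an adjusted p under 0.05 between levels, each point 1 library, with the mean and SD (n = 3) of each group beside it. In *Rps27l* all lumbar KO libraries (164 to 180) lie above all brachial libraries (104 to 141); in the other 3 genes the brachial Het and lumbar ranges overlap.

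The count rested on single libraries. Without lumbar Het 1, 37 members passed the adjusted threshold, without brachial Het 3 12, and without brachial Het 2, brachial KO 2 or 3, lumbar Het 2 or 3, or lumbar KO 2 or 3 1 each. The lumbar KO 1 library left out gave 2. The share of all genes called was not taken for these refits or the settings that follow. With replicate number as a block 1 member was higher and 1 lower after adjustment. In TPM as deposited 1 was higher and 1 lower, with a median of 0.032 where that of all genes was −0.13. After quantile normalization 6 were higher and 3 lower, and the median was 0.020, or 0.011 above that of all genes, against 0.16 before.

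Of genes for oxidative phosphorylation, 3 of 87 were higher and 4 lower between levels at an unadjusted p under 0.05, which 16.2% and 16% of all genes passed, with a median of 0.035. Their difference from the members was not tested. Of ribosome biogenesis factors 14 of 40 were higher (median 0.07) and of TOP mRNAs 7 of 20 (0.13), with 0 lower in each. Of mitochondrial ribosomal protein genes 19 of 78 were higher and 0 lower (median 0.10), and of the 8 ribosomal genes outside the symbol rule 4 were higher and 0 lower (0.18). Ventral progenitor and cycling cell markers summed to 707 to 923 in the brachial and 943 to 1267 in the lumbar libraries, with none at 0 in any group, 8 of 10 higher and 1 lower (*Olig2*, −0.73). Lower in lumbar cord were 3 of 4 endothelial markers (*Cldn5*, −0.61, *Kdr*, −0.36, and *Cdh5*, −0.31), 3 of 4 microglial markers (*Csf1r*, −0.996, *Cx3cr1*, −0.82, and *C1qa*, −0.65), the neuronal *Snap25* (−0.45), the MN gene *Slc5a7* (−1.10), *Col1a2* (−0.64) and *Acta1* (−0.69), and *Lhx3* (0.45) was higher. The part of these cell types in the members' difference was not tested.

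Members were last set against their own family, by size factors taken from the members alone, a scaling added after the data were seen. By construction it brings the median of the members near 0. In the brachial comparison 0 members were then lower and 3 higher (26% of all genes were higher), among them *Rpl28* (0.25) and *Rpl4* (0.11), with adjusted p = 0.169 and 0.174 by limma. In the lumbar comparison *Rps9* was lower (−0.21 ± 0.06) and *Rps27l* higher (0.19 ± 0.06) at an unadjusted p under 0.05, against 0.969% and 2.53% of all genes, and neither passed after adjustment. For the difference between levels in KO effect, *Rps9* (−0.29) and *Rpl28* (−0.36) were lower, against 6.34% of all genes.

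Between levels, on that scale, *Rps27l* (0.24, adjusted p = 0.00337), *Rps23* (0.12, adjusted p = 0.0145) and *Rpl35a* (0.14, adjusted p = 0.0221) stayed higher by limma and *Rps4l* was lower (−0.41, adjusted p = 0.016), against 3.17% and 15.5% of all genes. *Rps15a* was at 0.11 (adjusted p = 0.0952).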

How the data were processed

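RNA from E12.5 ventral spinal cord was sequenced by the authors after ribosomal RNA depletion with a stranded total RNA kit. Per the submitters' processing notes, FastQC 0.11.7, Trimmomatic 0.38, HISAT2 2.1.0, Bowtie2 2.3.4.1 and StringTie 2.1.3b were used with mm10. For each library the authors used StringTie to give every gene a TPM, an FPKM and a coverage signal, which are the deposited values. Counts are not among them, so the study's DESeq2 test was not run here. Aligned bases per library were derived from coverage and FPKM, and counting error per gene is unknown.

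Gene identifiers were matched to RefSeq symbols (GRCm38.p6). Each library's TPM was scaled by a size factor (median of ratios to the geometric mean), 0.1 was added and log2 taken. Genes whose TPM averaged 0.5 or more entered limma 3.58.1 (R 4.3.3), whose eBayes step used a trend, and p-values were Benjamini-Hochberg adjusted over all of them. A log2 difference is on the log2(value + 0.1) scale. KO was compared with Het in 6 libraries per level. Level, with genotype as a covariate, and the interaction used all 12. P-values measure the spread between the libraries of a group, and the level and interaction tests treat brachial and lumbar libraries as independent, although they may share embryos. With 3 against 3, an exact two-sided permutation test of one gene cannot go below 0.1.

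Pseudogenes (GENCODE M21) were matched to members with BLASTN 2.17.0. Python 3.11.15, pandas 2.3.3 and matplotlib 3.10.9 were used for tables and plots. The fit was tested on simulated data. Members, lists and tests were chosen with earlier results of these data known. Named were the 5 highest and 5 lowest members of each subunit, l paralogs and their parents, stalk, X-linked and disease genes, and per comparison the 3 of smallest p in each direction and those past the study threshold. Others were named after their values were seen. A few genes that this rule names are counted in all totals but not reported here by name. Alternatives were other pseudocounts, filters, scalings, coverage in place of TPM, no trend, a replicate block, one fit of all libraries, genes outside the symbol rule, and leaving out each library.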

Additional observations from a re-analysis of the deposited data

Results flagged for a closer look

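In 6 members the KO effect differed between the lumbar and brachial levels by an interaction term in limma at an unadjusted p under 0.05. The lumbar minus brachial difference of the log2 KO effect was 0.33 for *Rps27a*, 0.35 for *Rps27l*, 0.32 for *Rpl37*, 0.32 for *Rpl36*, 0.27 for *Rpl39* and 0.33 for *Rpl36a*. The adjusted p was 0.812 for each, and over all genes 2.28% passed the same threshold in this direction. *Rps27l* is the member with opposite signs beyond 0.1, at −0.18 in brachial KO and 0.17 in lumbar KO, neither of which passed the test alone.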

How the results depend on the processing

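Brachial KO against Het: 46 members were lower, and 1, 22, 29 and 0 with TPM as deposited, quantile normalization, no eBayes trend and the members' own size factors (3 higher there). The median of −0.26 became −0.088, −0.081 and −0.0054 with deposited TPM, quantile normalization and members' own factors, and *Rps27l* turned to 0.076 with the last. Members' own factors bring the median of the members near 0 by construction in every comparison. Members past the study threshold fell from 1 to 0 with members' own factors and with pseudogenes added. Without each library in turn, 5 to 71 were lower, 0 higher and 1 to 2 past the study threshold, with medians of −0.34 to −0.22.

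Lumbar KO against Het: 1 lower and 1 higher with TPM as deposited, protein-coding total, replicate block and members' own factors, and 4 lower and 1 higher with quantile normalization. Without each library 0 to 2 were lower, 0 to 1 higher and 0 to 1 past the study threshold, with medians of −0.09 to 0.04.

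Lumbar against brachial: adjusted calls higher fell from 4 to 1, 1, 2 and 1 with no filter, TPM as deposited, no trend and replicate block, and calls lower rose from 0 to 1 with TPM as deposited, protein-coding total, replicate block and members' own factors and to 3 with quantile normalization. Higher at an unadjusted p were 4, 13, 16 and 7 with TPM as deposited, quantile normalization, replicate block and members' own factors, and the median was 0.032, 0.020 and 0.0021 with the first, the second and the last. Members lower at an unadjusted p rose from 1 to 5 with quantile normalization and with members' own factors, and the median was 0.10 with the protein-coding total. Without each library 1 to 37 were higher and 0 to 1 lower after adjustment and 11 to 65 higher before it, with medians of 0.13 to 0.22.

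Interaction: 6 higher became 3, 0, 15, 2, 2 and 0 with no filter, TPM as deposited, protein-coding total, no trend, replicate block and members' own factors (2 lower with the last), and the median of 0.25 became 0.081, 0.040 and 0.0067 with TPM as deposited, quantile normalization and members' own factors. Without each library 0 to 39 were higher and 0 lower, with medians of 0.17 to 0.33. The cause of these changes was not tested. Shares of all genes called were taken only for the main fits and for members' own factors.

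Same-numbered libraries had correlations of −0.21 to 0.23 between genotypes and −0.22 to 0.34 between levels. Libraries of different numbers were not compared, so these values cannot tell whether replicate numbers pair libraries. The main fits took them as unpaired. With the replicate block 55 members were lower at the brachial level. Between levels the replicate block left *Rps27l* past the adjusted threshold and not *Rpl35a*, *Rps23* or *Rps15a* (adjusted p = 0.0582, 0.081 and 0.0878, limma). The summed level was lower in brachial KO by a ratio of 0.944 as a share of deposited TPM and 0.886 as a share of protein-coding TPM. TPM keeps no counts, so whether low members such as *Rpl39l* were undetected or absent cannot be told apart at this depth.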
